A study of Mus musculus with 48 samples.

Results

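Synaptic scaffold proteins of 3 families were followed through mouse striatum by the genes that encode them: the membrane-associated guanylate kinases Dlg1, Dlg2, Dlg3 and Dlg4, their inverted relatives Magi1, Magi2 and Magi3, and the proteins Shank1, Shank2 and Shank3. The members were taken by gene symbol from the table of gene counts, which gave 10 of 23420 genes, and by Ensembl identifier from the table of exon bin counts, which gave 392 of 368092 bins. Exon bins cut each gene wherever its set of annotated transcripts changes, so that alternative exons and alternative starts fall into bins of their own. All 10 genes and 346 of the 392 bins passed the filter on low counts.

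The mice were 8 112kb congenic animals, 4 male and 4 female, which carry a congenic segment of 112 kb, and 8 wild-type C57BL/6J littermates, also 4 male and 4 female. All were about 50 days old, and no treatment is given in the labels. Striatum was taken as 3 mm punches, the punches of both hemispheres were pooled per mouse, and polyadenylated RNA was sequenced in 3 lanes, so each mouse is 1 library read 3 times. The title of the series puts differential splicing between the genotypes as the question, and levels, exon bins and annotated starts of the scaffold genes were compared for it.

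Excitatory synapses hold their receptors in place with a dense layer of scaffold proteins under the postsynaptic membrane. Dlg proteins, of which Dlg4 (PSD-95) is the best known, bind the tails of glutamate receptors, potassium channels and adhesion proteins through PDZ domains. Dlgap proteins link the guanylate kinase-like domain of the Dlg proteins to the Shank proteins deeper in the density, and the Shank proteins reach on to Homer and to the actin cytoskeleton. Magi proteins carry the guanylate kinase-like domain near the amino terminus, ahead of most of their PDZ domains, and occur at synapses and at the junctions of epithelial cells. In the striatum, Shank3 is the Shank protein best known for a role at the synapses that cortical axons make on projection neurons.

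Dlg1, Dlg2 and Dlg3 share alternative exons in 1 region, the hook, which joins the SH3 domain to the guanylate kinase-like domain and is known for alternative splicing in these genes. They are printed first because their use, given below with the exon results, is the clearest difference between the paralogs in these data. All sequences are from the NCBIM37 (mm9) genome, plus strand, 5′ to 3′, with positions counted from 1. Capitals mark bases that match the Dlg2 exon in the Dlg1 and Dlg3 exons, and in the Dlg2 exon the bases that both others match. Exon A is 100 bases long in each gene, at chr16:31846920-31847019 in Dlg1, chr7:99565734-99565833 in Dlg2 and chrX:98003392-98003491 in Dlg3.

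Dlg1 exon A: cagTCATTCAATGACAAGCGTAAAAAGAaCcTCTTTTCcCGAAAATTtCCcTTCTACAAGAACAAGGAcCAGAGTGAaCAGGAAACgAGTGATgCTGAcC
Dlg2 exon A: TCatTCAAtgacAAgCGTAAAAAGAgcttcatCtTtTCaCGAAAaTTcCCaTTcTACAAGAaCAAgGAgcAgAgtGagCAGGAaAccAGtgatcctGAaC
Dlg3 exon A: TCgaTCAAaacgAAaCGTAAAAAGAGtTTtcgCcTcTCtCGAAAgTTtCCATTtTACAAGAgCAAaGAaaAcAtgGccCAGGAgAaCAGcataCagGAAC

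Exon B follows it, with 34 bases in Dlg1 at chr16:31847722-31847755 and 46 bases in Dlg2 at chr7:99566598-99566643 and in Dlg3 at chrX:98005201-98005246. Division of the length by 3 leaves a remainder of 1 for exons A and B of all 3 genes.

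Dlg1 exon B: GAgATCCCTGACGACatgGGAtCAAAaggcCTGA
Dlg2 exon B: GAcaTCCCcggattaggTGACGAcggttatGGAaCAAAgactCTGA
Dlg3 exon B: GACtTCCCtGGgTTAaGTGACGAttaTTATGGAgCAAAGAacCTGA

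Exon C has 42 bases in each gene, a whole number of codons, at chr16:31853929-31853970 in Dlg1, chr7:99569142-99569183 in Dlg2 and chrX:98006841-98006882 in Dlg3.

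Dlg1 exon C: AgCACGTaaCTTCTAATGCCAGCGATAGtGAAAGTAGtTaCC
Dlg2 exon C: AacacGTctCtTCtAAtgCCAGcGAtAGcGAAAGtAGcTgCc
Dlg3 exon C: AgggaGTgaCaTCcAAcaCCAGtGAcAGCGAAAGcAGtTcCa

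Identical bases made up 87% of the length of exon A between Dlg1 and Dlg2, against 66% between Dlg2 and Dlg3 and 61% between Dlg1 and Dlg3. For exon C the shares were 85.7%, 61.9% and 66.7% for the same 3 pairs. Exon B was nearer to even, with 73.5% between Dlg1 and Dlg2, 78.3% between Dlg2 and Dlg3 and 76.5% between Dlg1 and Dlg3, each of the shorter exon.

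Depth was alike between the genotypes. Gene counts summed to between 73125051 and 81257235 per congenic mouse, against 73148633 to 81994255 per wild-type mouse. Exon bin counts summed to between 119470027 and 133099488 per congenic mouse, against 118458225 to 133151148 per wild-type mouse. The 14 markers of striatal projection neurons fixed for the check were all detected, with summed levels of 10430 to 13550 counts-per-million (CPM) in congenic and 10990 to 13560 CPM in wild-type mice. Ppp1r1b, which encodes DARPP-32, averaged 1956 ± 212 CPM over the 8 congenic mice, against 1979 ± 241 CPM over the 8 wild-type ones (SD). The 14 markers of cortical excitatory neurons were lower but also all detected, at 210 to 501 CPM in congenic and 269 to 487 CPM in wild-type mice. Their median log2 fold change was -0.38 for congenic over wild type and -0.51 for male over female, and none of the 14 passed the test in either comparison. Wild-type replicate 8, labelled female, had 2.64 CPM of Xist, against 951 to 1549 CPM in the other 7 mice labelled female, and 7 counts over the Y-linked genes checked, against 13555 to 15622 in the males. Tests by sex of the members, their partners and the named bins are therefore given with and without the library labelled wild-type replicate 8. Most males also carry lower mouse numbers than the females, and sex cannot be fully told apart from whatever the numbering follows.

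Levels across the 10 genes spanned a wide range and kept nearly the same order in every mouse. Levels between genes are given as CPM per kilobase of the gene's exon bins, the mean over all 16 mice with the range. Dlg4 was highest at 235 CPM per kilobase (212 to 260), followed by Shank3 at 63.0 (54.9 to 73.0) and Dlg2 at 56.1 (52.6 to 62.2). Dlg4 stood above Shank3 in all 16 mice with no overlap, and Shank3 above Dlg2 in 15 of 16 although their ranges overlapped. Dlg1 at 34.7 (31 to 40.7) and Dlg3 at 34.6 (29.7 to 36.8) could not be ordered, with Dlg1 higher in 7 of 16 mice. Shank1 at 14.3 and Magi2 at 13.6 could not be ordered either, with Shank1 higher in 8 of 16. Magi1 at 9.87 and Shank2 at 9.07 overlapped, with Magi1 higher in 12 of 16, and Magi3 at 7.40 was lowest in every mouse. Ranks depended in part on the length used: 4 of the 10 ranks stayed when the longest annotated transcript replaced the exon bins, and 6 of 10 stayed with sums of exon bin counts. The order of Shank3 and Dlg2 was among those that changed. By the longest transcript Dlg2 had rank 2 and Shank3 rank 3, and by exon bin sums Shank3 had rank 2 and Dlg2 rank 4.

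**Figure D1:**
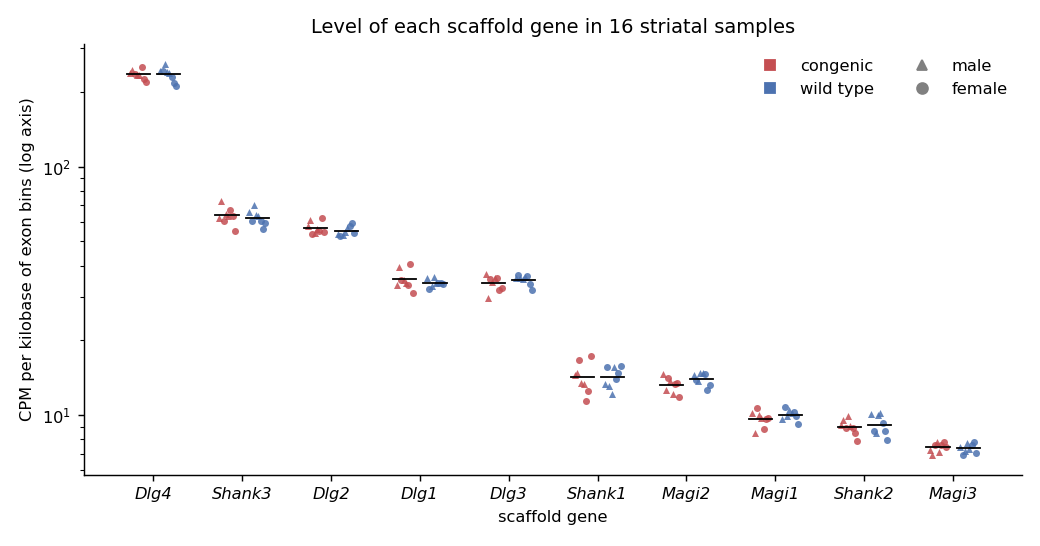
Level of each scaffold gene in CPM per kilobase of exon bins (log axis), 1 point per mouse, congenic left of wild type, triangles for males and circles for females, bars at the group means. Dlg4 lies above every other gene, and the congenic and wild-type points of each gene overlap.

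Summed by family, the 4 Dlg genes took 75.5% of the CPM per kilobase of the 10 genes, the 3 Shank genes 18.1% and the 3 Magi genes 6.47%. Dlg genes summed to 361 ± 11.9 CPM per kilobase in congenic and 360 ± 15.6 in wild-type mice, Shank genes to 86.8 ± 4.87 and 85.8 ± 4.03, and Magi genes to 30.4 ± 1.60 and 31.5 ± 1.17 (SD, n = 8 each). In bulk punches, fewer cells of a type and less RNA per cell cannot be told apart, and a level here is an average over all cells of the punch.

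None of the 10 genes passed a test for a difference in level between congenic and wild-type mice. In edgeR's quasi-likelihood test over 16716 genes, with sex in the model and Benjamini-Hochberg adjustment, 0 of 10 members passed an adjusted p of 0.05, and 0% of all genes passed. At an unadjusted p under 0.05 the counts were 0 of 10 members and 256 genes, 1.53% of those tested, and DESeq2 and limma-voom also called 0 members. The members' median log2 fold change was -0.00, with 5 of 10 above 0, against 0.00 over all genes tested, with 51.1% above 0. All 10 had an adjusted p of 0.999. The 95% intervals bound what could have been missed: the lowest end among the 10 was -0.17, for Magi2, and the highest 0.15, for Dlg1 and Shank1.

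Among the Dlg genes, Dlg4, which encodes PSD-95, ranged from 1023 to 1168 CPM with a median of 1094 in congenic mice, and from 985 to 1210 CPM with a median of 1113 in wild-type mice. The groups overlapped over nearly their whole range, and the log2 fold change was 0.00 (95% interval -0.08 to 0.09). Dlg2, a close relative that also anchors NMDA receptors, ranged from 591 to 684 CPM (median 612) in congenic and from 579 to 651 CPM (median 599) in wild-type mice. Its log2 fold change was 0.04 (-0.04 to 0.13). Dlg1, which has been tied to the traffic of AMPA receptors, ranged from 277 to 365 CPM (median 309) in congenic and from 289 to 322 CPM (median 304) in wild-type mice. The wild-type range lay inside the congenic one, and the log2 fold change was 0.05 (-0.05 to 0.15). Dlg3, a partner of NMDA receptors that is prominent in young neurons, ranged from 174 to 215 CPM (median 204) in congenic and from 187 to 213 CPM (median 209) in wild-type mice, with a log2 fold change of -0.05 (-0.14 to 0.05).

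Shank3 ranged from 489 to 650 CPM (median 565) in congenic and from 497 to 624 CPM (median 549.5) in wild-type mice, with a log2 fold change of 0.03 (-0.06 to 0.13). Shank1 was the most variable member, with 94.9 to 143 CPM (median 116) in congenic and 101 to 130.3 CPM (median 119.5) in wild-type mice. Its coefficient of variation over the 16 mice was 11.5%, against 4.24% for Magi3, the least variable. The log2 fold change of Shank1 was -0.01, with the widest interval of the 10, from -0.16 to 0.15. Shank2 ranged from 84.1 to 106 CPM in congenic and from 85.3 to 109 CPM in wild-type mice, both with a median of 95.9, and its log2 fold change was -0.03 (-0.12 to 0.06).

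Magi2, a partner of neuroligins and of Dlgap proteins, ranged from 100.0 to 123 CPM (median 113) in congenic and from 106 to 124.5 CPM (median 119.7) in wild-type mice. Its log2 fold change of -0.08 (SE 0.05, 95% interval -0.17 to 0.02) had the smallest unadjusted p of the members in edgeR's test, 0.104. Magi1 ranged from 67.1 to 84.0 CPM (median 76.9) in congenic and from 72.9 to 84.8 CPM (median 79.5) in wild-type mice, with a log2 fold change of -0.06 (-0.15 to 0.04). Magi3 ranged from 46.8 to 52.7 CPM (median 50.9) in congenic and from 46.9 to 53.0 CPM (median 49.9) in wild-type mice, with a log2 fold change of 0.01 (-0.07 to 0.09).

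**Figure D2:**
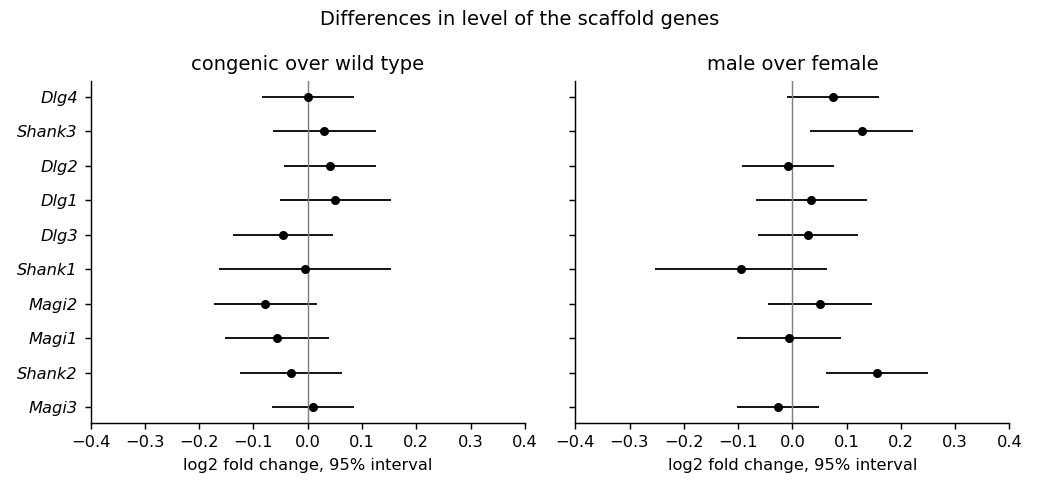
Log2 fold change of each scaffold gene with its 95% interval from edgeR, congenic over wild type on the left and male over female on the right. All 10 intervals on the left include 0. On the right, the intervals of Shank2 (0.06 to 0.25) and Shank3 (0.03 to 0.22) lie above 0, and neither gene passed after adjustment.

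By sex, 0 of 10 members passed the same edgeR test, in which 0.138% of all genes (23 of 16716) passed. Shank2 was at 90.2 to 109 CPM in the 8 males and 84.1 to 99.7 CPM in the 8 females, so that the groups overlapped. Its log2 fold change for male over female was 0.16 (SE 0.05, 95% interval 0.06 to 0.25), with an unadjusted p of 0.00256 and an adjusted p of 0.164 in edgeR's test. Shank3 was at 554 to 650 CPM in males and 489 to 595 CPM in females, with a log2 fold change of 0.13 (0.03 to 0.22), an unadjusted p of 0.0107 and an adjusted p of 0.224. These 2 of 10 members had an unadjusted p under 0.05, as did 14.7% of all genes. Without the library labelled wild-type replicate 8, the log2 fold change was 0.13 for Shank2 (adjusted p = 0.312 in edgeR's test) and 0.12 for Shank3 (adjusted p = 0.369). Dlg4 had 0.07 (-0.01 to 0.16) and Shank1 -0.09 (-0.25 to 0.06), and the other 6 members lay between -0.03 and 0.05. Without that library Dlg4 had 0.05 and Shank1 -0.08, the other 6 lay between -0.04 and 0.04, and 0 of 10 members passed. Cortical marker levels move with this comparison, by the median given above. Other marker lists also had a median log2 fold change for male over female away from 0, which was 0.13 for microglia, 0.10 for striatal projection neurons, 0.10 for oligodendrocyte precursors and 0.08 for endothelial cells. The medians were -0.24 for ependyma, -0.24 for septum and pallidum, -0.08 for oligodendrocytes and -0.00 for astrocytes, and 0 genes were called in any list. The part of these lists in the comparison was not tested. With the score of the cortical markers as a covariate the log2 fold change for male over female was 0.14 for Shank2 and 0.08 for Shank3. None of the other lists was used as a covariate. The members' median by sex was 0.03, with 6 of 10 above 0, against -0.00 over all genes.

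The product of genotype and sex was tested to see whether the genotype difference itself differed between males and females. In edgeR's test 0 of 10 members passed, 0% of all genes passed, and 0 of 10 members against 698 genes (4.18%) had an unadjusted p under 0.05. DESeq2 and limma-voom likewise called 0 members. The estimates ran from -0.09 (Dlg4) to 0.10 (Shank1), and their 95% intervals reached from -0.27 for Magi2 to 0.42 for Shank1. Without the library labelled wild-type replicate 8 the estimates ran from -0.06 (Magi2) to 0.09 (Shank1), and 0 of 10 passed.

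Partners of the scaffolds were followed as a list of 47 genes for proteins that bind Dlg, Magi or Shank proteins or work beside them, such as the Dlgap, Homer, neuroligin and Cacng families. Of these, 46 were analysed here. By genotype 0 were called higher and 0 lower by edgeR, and 1 of 46 had an unadjusted p under 0.05, against 1.53% of all genes. Of the 46, 20 had a log2 fold change above 0, against 51.1% of all genes, and the median was -0.01 against 0.00 over all genes. The partner of smallest p was Mpdz, a protein with many PDZ domains, with 53.8 ± 4.80 CPM over congenic mice, against 57.9 ± 1.60 CPM over wild-type ones (SD, n = 8 per genotype). Its log2 fold change was -0.11, with an unadjusted p of 0.0357 and an adjusted p of 0.999 in edgeR's test. Homer3, which links Shank proteins to metabotropic glutamate receptors, came next with 0.10, and Nos1, the neuronal nitric oxide synthase that binds Dlg4, with -0.13.

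By sex the partners also gave 0 calls higher and 0 lower, where 0.138% of all genes were called, while 12 of 46 had an unadjusted p under 0.05 in edgeR's test, as did 14.7% of all genes. Of the 46, 33 had a log2 fold change for male over female above 0, against 48% of all genes, with a median of 0.06 against -0.00 over all genes. Without the library labelled wild-type replicate 8, a fit of the partners added after seeing the data, 0 of 46 were called, 8 had an unadjusted p under 0.05 in edgeR's test, against 10.9% of all genes, and 34 lay above 0, against 46.5%. The partners of smallest p were Mpp2, a guanylate kinase-like scaffold, with 0.19 (adjusted p = 0.192), its relative Mpp6 with 0.16 (adjusted p = 0.201), and Baiap2, an actin regulator that binds Shank proteins and Dlg4, with 0.23 (adjusted p = 0.208). Baiap2 was at 619 ± 64.3 CPM in males and 527 ± 64.5 CPM in females (SD, n = 8 each). Without the same library the log2 fold changes were 0.16 for Mpp2, 0.16 for Mpp6 and 0.19 for Baiap2. For the product of genotype and sex, 0 of 46 were called in either direction, with or without that library.

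Exon usage asks whether a bin holds a different part of its gene's counts in the 2 genotypes. The exon usage test of edgeR compares each bin with the rest of its gene and combines the bins of a gene by Simes' method. It called 1 of the 10 members by genotype, Magi2, which was the only gene called of all 14875 tested (0.00672%). Member count and share are therefore the same call, and no excess among the members can be read from them. The bin behind the call was known from earlier results of these data, and its limits are given below. By sex 0 of 10 members were called, against 0.128% of all genes. Among single bins, 1 of 346 member bins was called by genotype, and it was the only bin called of all 235478 (0.000425%). By sex 0 of 346 member bins were called, against 0.0157% of all bins. In 343 of the 346 member bins the log2 difference by genotype lay within 0.5 of 0, and by sex in 344. At an unadjusted p under 0.05 there were 4 member bins by genotype, where all bins gave 1.03%, and 17 by sex, where all bins gave 3.25%.

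The called bin was bin 34 of Magi2, the last of the 34 bins of a group that joins 2 Ensembl genes of that name, at chr5:20211191-20211867. It is 677 bases long and belongs to 1 annotated transcript, Magi2-203, a short model of which it is the last exon. Its coding part, 211 bases from the start of the bin to position 20211401, is printed because this bin is the 1 that was called by genotype, a call with the limits given beside its values.

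Magi2 bin 34, coding part: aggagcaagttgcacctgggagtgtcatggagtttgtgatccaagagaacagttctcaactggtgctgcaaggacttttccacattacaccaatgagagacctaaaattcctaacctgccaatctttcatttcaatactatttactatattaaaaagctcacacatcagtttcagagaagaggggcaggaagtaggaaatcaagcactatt

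Congenic replicates 1 to 8 had 13, 22, 0, 2, 15, 9, 20 and 10 counts in this bin. Wild-type replicates 1 to 8 had 10, 4, 0, 4, 2, 0, 2 and 0 counts. The groups overlapped, with 0 counts in congenic replicate 3 and 10 in wild-type replicate 1. As a share of the exon counts of Magi2 the bin held 0.0919 ± 0.0648% in congenic and 0.0193 ± 0.0231% in wild-type mice (SD over 8 per genotype). The neighbouring bin 33, the long 3′ untranslated end of another transcript, held 1843 to 2450 counts in congenic and 2144 to 2429 counts in wild-type mice.

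The bin entered the test through congenic mice alone: the filter asked for 4 mice at the CPM that 10 counts give at the median depth, and 4 congenic and 0 wild-type mice reached it. A bin kept in this way is high in the group that kept it, and its call is to be read with that limit. The log2 difference of bin 34 by genotype was 2.14 (SE 0.37), with an adjusted p of 0.00235 for the bin and 0.00476 for Magi2 by edgeR's test with Simes' method. With limma's exon usage test the difference was 2.09, with an adjusted p of 0.668 for the bin and 0.999 for the gene, so the call rests on the edgeR test. Leaving out 1 mouse at a time gave 1.91 to 2.71, and the call of Magi2 was kept in 10 of 16 fits and lost without congenic replicate 2 or 7 or wild-type replicate 3, 5, 6 or 8. Adjusted p for the bin then ranged from 7.66e-05 to 0.532 in edgeR's test. Cortical marker scores (mean log2 CPM of the 14 markers, centred on each gene's mean) were lowest in the mice with most counts. Congenic replicates 2 and 7, with 22 and 20 counts, had scores of -1.14 and -0.84. Other mice did not follow this order: congenic replicate 8 had the highest score, 0.78, with 10 counts, and congenic replicate 4 had -0.46 with 2 counts. The relation between score and counts was not tested. With the score as a covariate the difference was 1.70 with an adjusted p of 1 by edgeR. All these values rest on at most 22 counts per mouse.

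**Figure D3:**
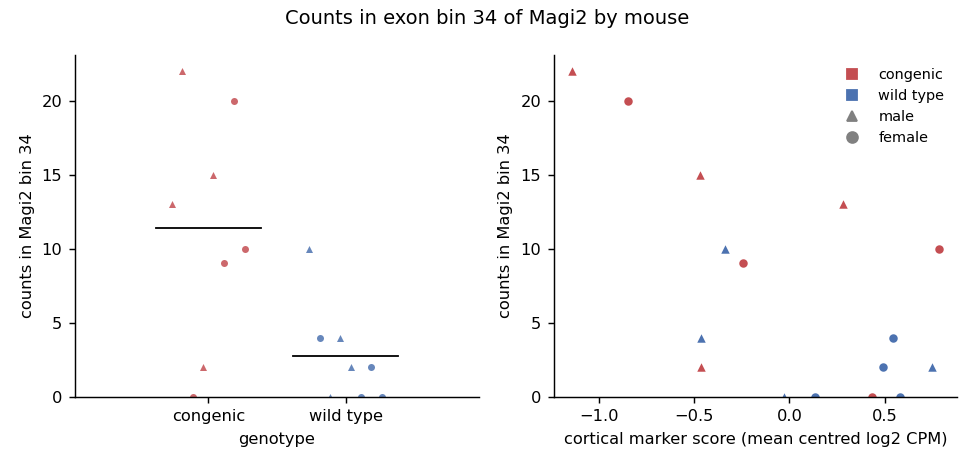
Counts in Magi2 bin 34 per mouse, by genotype on the left (congenic, then wild type, bars at the group means) and against the cortical marker score (mean centred log2 CPM) on the right. Congenic mice range from 0 to 22 counts and wild-type mice from 0 to 10, and the congenic mice with 22 and 20 counts have the lowest marker scores.

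The next smallest p-values by genotype were in bins that did not pass. Bins 15 and 16 of Shank2, which lie upstream of its densest start, held 18 to 45 counts (median 28.5) and 17 to 47 counts in congenic mice, against 21 to 53 counts (median 40) and 19 to 57 counts in wild-type mice. Their log2 differences were -0.47 (SE 0.19) and -0.43, with unadjusted p of 0.0129 and 0.017 and an adjusted p of 1 in edgeR's test. Bin 3 of Magi3, a non-coding end of 1 transcript, had -0.67 with an unadjusted p of 0.0212 on 5 to 19 counts in congenic and 10 to 18 counts in wild-type mice, and an adjusted p of 1 in edgeR's test. By sex the smallest p was in bin 38 of Dlg2, a 19-base bin, with a log2 difference for male over female of 0.25 (SE 0.08), an unadjusted p of 0.0019 and an adjusted p of 0.944 in edgeR's test. Bin 12 of Dlg4 followed with 0.27 and an unadjusted p of 0.00541, and an adjusted p of 1. Without the library labelled wild-type replicate 8 both bins had 0.25 (adjusted p = 1 by edgeR), and 0 member bins were called by sex.

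Several scaffold genes have more than 1 annotated start, and the counts per base of the bins behind each start were compared. They are a rough guide, since the use of a start was not itself measured. Values are the counts per base of those bins as a percentage of the counts per base of downstream bins that the long transcripts share. For scale, the first coding bin that all annotated coding transcripts share gave 37.9 ± 7.41% for Magi3 in congenic and 41.04 ± 6.33% in wild-type mice, and 46.6 ± 4.32% and 47.1 ± 4.54% for Shank1 (SD, n = 8 each). First coding bins thus lay well below 100% even where all coding transcripts contain them. In both genes other bins lie ahead of this one, so first bins themselves are not put to scale by it. Counts per base ran high in short bins, with 1318 in bin 23 of Dlg4 (2 bases) against 15.7 in its bin 47 (814 bases). A start in long bins therefore reads low against short shared bins. To allow for reads that only touch a bin, 99 bases were added to each length. Where this moved a start by over 1.5 times, that value is given too.

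The counts of Shank2 were densest at its downstream start. Bins 1 to 10, which belong to the longest annotated transcript alone, reached 0.692 ± 0.155% of the shared bins in congenic and 0.773 ± 0.298% in wild-type mice, on 16 to 40 counts per mouse. The first coding bin of the middle start, bin 12, reached 3.07 ± 0.814% and 3.29 ± 0.974%. Bins 13 to 16, shared by the 3 longest coding transcripts, reached 7.23 ± 1.81% in congenic and 9.17 ± 1.72% in wild-type mice, with ranges of 4.39 to 10.1% and 6.03 to 11.1% that overlapped. The first coding bin of the downstream start, bin 18, reached 20.1 ± 1.52% and 19.8 ± 1.61% (SD, n = 8 each). With 99 bases added to each length, the means over 16 mice were 4.98% at the middle start and 33.2% at the downstream one, against 3.18% and 19.9% without. Long Shank proteins carry ankyrin repeats at the amino terminus, which short forms of Shank2 lack.

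Dlg2 showed its highest start density at its second start, bin 8, with 26.7 ± 1.84% in congenic and 25.4 ± 2.44% in wild-type mice. The most upstream start, bins 1 to 5, reached 2.60 ± 0.455% and 2.49 ± 0.358%, and the third start, bin 9, reached 6.87 ± 1.42% and 6.58 ± 1.47%. The next starts downstream, bins 14 and 17, lay at 1.89 ± 1.29% and 1.54 ± 0.754% in congenic and at 2.21 ± 1.42% and 2.06 ± 0.465% in wild-type mice (SD, n = 8 each). These low values come from 2 to 44 and 9 to 37 counts per mouse.

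In Dlg4 the most upstream start, bins 1 to 4, held 0 to 7 counts per mouse, 0.00400 ± 0.00530% in congenic and 0.00337 ± 0.00378% in wild-type mice, while the main start, bins 6 to 8, reached 13.03 ± 0.678% and 12.7 ± 0.247%. The start inside the second intron of Dlg4, bin 14, reached 0.824 ± 0.203% and 0.757 ± 0.235%. Dlg1 reached 74.9 ± 5.73% in congenic and 72.2 ± 5.87% in wild-type mice at bins 6 and 7, the first coding bins of its upstream transcripts. These transcripts begin ahead of them, in bins 1 to 5, and bin 5 had 3.37 counts per base against 13.7 in bin 6. The 74.9 and 72.2% are therefore not values of first bins. The internal start of Dlg1 at bin 11 reached 1.33 ± 0.183% and 1.35 ± 0.280%. Dlg3 was denser at the first coding bin of its upstream start, bin 4, with 38.8 ± 2.93% and 37.4 ± 2.10%. An internal start of Dlg3 had 2.23 ± 0.356% and 1.70 ± 0.415% on 11 to 28 counts (SD, n = 8 each). With 99 bases added, the means over 16 mice were 26.2% at the main start of Dlg4, against 12.9% without, and 2.13% at the internal start of Dlg1, against 1.34%. The most upstream start of Dlg4 had 0.00595%, against 0.00369%.

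Magi2 was likewise densest at its downstream start, bins 3 and 4, with 76.7 ± 5.22% in congenic and 79.1 ± 4.25% in wild-type mice, against 8.52 ± 1.29% and 7.95 ± 1.73% for the most upstream start. In Magi1 the starts were closer, 16.0 ± 2.49% and 16.4 ± 2.87% for the most upstream start and 22.8 ± 2.55% and 22.9 ± 2.45% for the downstream one. Shank3 reached 41.7 ± 5.30% in congenic and 42.8 ± 3.57% in wild-type mice at its upstream start, near the first coding bins of Magi3 and Shank1, and 6.07 ± 0.711% and 6.11 ± 0.658% at a late internal start, bin 24 (SD, n = 8 each). With 99 bases added, the late start of Shank3 had 12.01% over 16 mice, against 6.09% without. No start was tested as a sum, and the ranges of the genotypes overlapped at every start named.

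**Figure D4:**
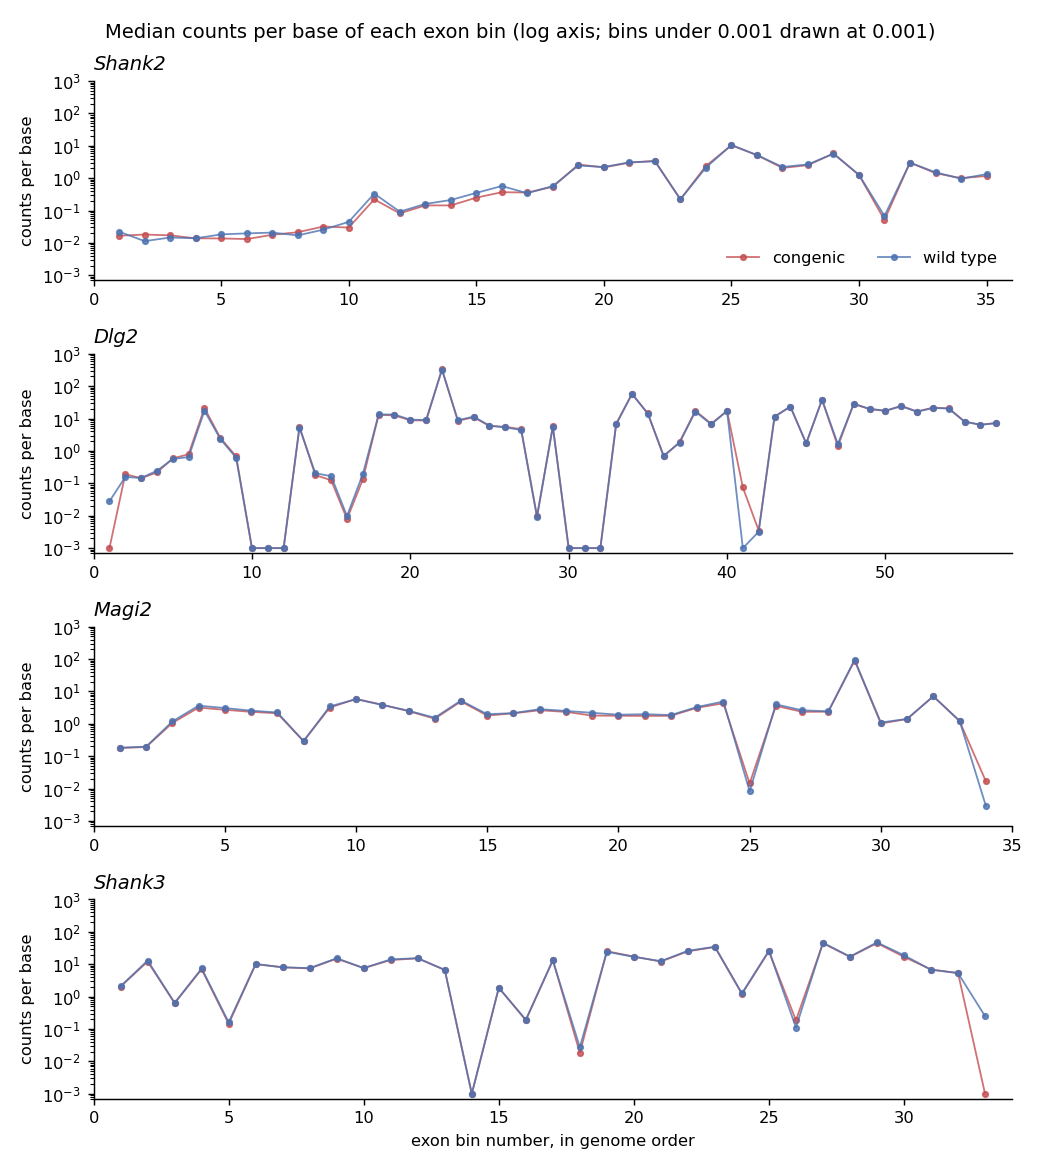
Median counts per base (log axis) of each exon bin of Shank2, Dlg2, Magi2 and Shank3 in genome order, congenic and wild-type medians as 2 lines. Shank2 climbs from bin 1 to bin 19, Magi2 drops at bin 34, and Shank3 has 0 counts at bin 14 in both genotypes.

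Bin 14 of Shank3, at chr15:89351534-89351804, is a coding bin of 271 bases that all 3 long transcripts contain, and it had 0 counts in all 16 mice. It is printed here because its absence from the counts would otherwise read as a skipped exon.

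Shank3 bin 14: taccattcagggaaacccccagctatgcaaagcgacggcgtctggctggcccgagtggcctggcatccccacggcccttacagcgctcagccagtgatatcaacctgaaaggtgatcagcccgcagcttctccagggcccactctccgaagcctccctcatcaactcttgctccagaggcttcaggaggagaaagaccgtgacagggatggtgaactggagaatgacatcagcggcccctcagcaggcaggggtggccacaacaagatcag

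Its 5′ neighbours bins 12 and 13 held 989 to 1386 and 396 to 550 counts in congenic mice, against 1075 to 1351 and 427 to 520 counts in wild-type mice. On the 3′ side, bins 15 and 17 of the long transcripts held 302 to 462 and 1321 to 1687 counts in congenic mice, against 330 to 454 and 1320 to 1701 counts in wild-type mice. Every 36-base window of the bin taken at steps of 10 bases, 24 in all, occurs once in the genome. The whole bin lies under an annotated exon of Gm15609, a non-coding RNA on the other strand, and no other bin of the 10 genes overlaps an exon on the other strand. Across all genes, 69 bins of protein-coding transcripts of at least 50 bases lay in full under such an exon between neighbours that averaged at least 100 counts per mouse, and all 69 had 0 counts in all 16 mice. Among 66602 bins chosen in the same way with no such overlap, 14 (0.0210%) had 0 counts. The zero of Shank3 bin 14 is therefore shared by every bin of that kind in the exon table and gives no measure of the use of the exon. Besides it, 2 member bins had 0 counts in every mouse, bins 11 and 30 of Dlg2, with 7 and 66 bases.

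Use of the hook exons differed between the Dlg paralogs, and no hook exon passed by genotype. Values are the counts of the exon as a percentage of the mean count of a bin on either side, so that a longer exon counts for more. These flanking bins were 44 and 48 in Dlg2 and 21 and 26 in Dlg3, outside all 3 exons. In Dlg1 they were bins 31 and 44 for exon C, but bins 31 and 41 for exons A and B. Bin 41 is exon C of Dlg1, itself an alternative exon. Percentages of exons A and B in Dlg1 are therefore not on the same scale as in Dlg2 and Dlg3. Exon A held 162 to 215 counts in Dlg1, 137 to 190 in Dlg2 and 53 to 83 in Dlg3 in congenic mice, against 146 to 186, 136 to 204 and 59 to 90 in wild-type mice. As percentages these were 18.2 ± 1.82% in congenic and 17.2 ± 1.55% in wild-type mice for Dlg1, 10.5 ± 1.10% and 10.7 ± 1.34% for Dlg2, and 8.35 ± 1.62% and 8.12 ± 1.30% for Dlg3 (SD, n = 8 each). Exon A was therefore the little used one of the first 2 in all 3 genes, although its sequence is the longest of the 3.

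Exon B was the used one of this pair. Its percentages were 60.1 ± 2.50% in congenic and 59.3 ± 3.64% in wild-type mice for Dlg1, 109 ± 4.30% and 109 ± 2.88% for Dlg2, and 93.0 ± 1.78% and 93.6 ± 3.81% for Dlg3 (SD, n = 8 each). Dlg1 was below both paralogs in every mouse, with the unlike flanking bins given above. With 99 bases added to each length to allow for reads that only touch a short bin, the means over 16 mice were 68.2% for Dlg1, 122.6% for Dlg2 and 105.5% for Dlg3, in the same order.

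Exon C separated the genes most. It held 987 to 1299 counts in Dlg1, 44 to 77 in Dlg2 and 272 to 392 in Dlg3 in congenic mice, against 951 to 1171, 56 to 86 and 281 to 378 in wild-type mice. The percentages were 85.2 ± 3.53% in congenic and 82.8 ± 3.57% in wild-type mice for Dlg1, 39.96 ± 1.92% and 38.9 ± 1.98% for Dlg3, and 3.76 ± 0.827% and 4.32 ± 0.591% for Dlg2 (SD, n = 8 each). No mouse's values overlapped between genes. Dlg1 and Dlg2, whose exon C share 85.7% of their bases, were thus at the 2 ends. None of these 9 exons passed by genotype or by sex in edgeR's exon usage test, each with an adjusted p of 1, and the largest log2 difference by genotype was -0.20, for exon C of Dlg2.

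**Figure D5:**
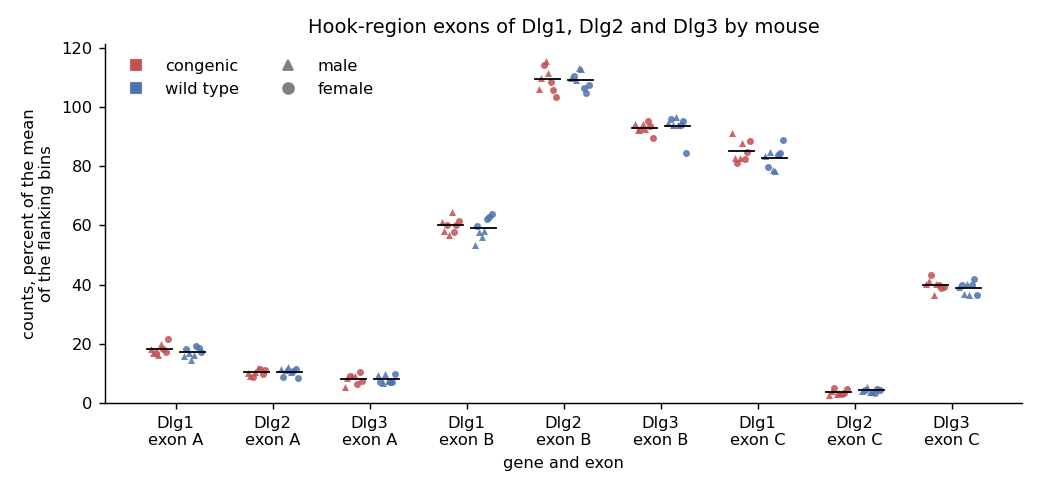
Counts of exons A, B and C of Dlg1, Dlg2 and Dlg3 as a percentage of the mean of the flanking bins, 1 point per mouse, congenic left of wild type, triangles for males and circles for females, bars at the group means. Exon A is low in all 3 genes, exon B high, and exon C runs from about 4.04% in Dlg2 to 84.0% in Dlg1 over the 16 mice.

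A further hook exon of Dlg1, of 36 bases, reached 71.0 ± 4.38% in congenic and 69.6 ± 3.31% in wild-type mice, and an exon of 99 bases near the amino terminus of Dlg1 reached 24.8 ± 2.13% and 24.3 ± 1.73% (SD, n = 8 each). Neither passed by genotype or by sex.

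Shank1 and Shank3 share a short exon ahead of their last large exons, 24 bases long in both, at chr7:51599668-51599691 and chr15:89368446-89368469. The pair is shown because the paralogs used it to different extents, and capitals mark the bases that match between them, 66.7% of the length.

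Shank1 24-base exon: tCTcCCccTgGaAGAAGAAAAttG
Shank3 24-base exon: CTtCCatTcGgAGAAGAAAAggGg

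The Shank3 exon held 1002 to 1236 counts in congenic and 1067 to 1202 in wild-type mice, or 51.0 ± 1.66% and 51.2 ± 1.53% of its flanking bins. In Shank1 it held 33 to 64 counts in congenic and 37 to 50 in wild-type mice, or 12.4 ± 2.68% and 10.8 ± 1.80% (SD, n = 8 each). Values of the genes did not overlap in any mouse. A 27-base exon in the middle of Shank1 reached 28.5 ± 3.58% and 28.9 ± 2.70%, and a 21-base exon of Shank2 39.2 ± 5.05% and 37.0 ± 5.05%. With 99 bases added to each length, the means over 16 mice were 84.2% for the Shank3 exon, 16.5% for the 24-base exon of Shank1 and 64.2% for the Shank2 exon, against 51.1%, 11.6% and 38.1% without. None of them passed by genotype or by sex in edgeR's exon usage test.

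Magi2 has an alternative exon of 42 bases in the middle of its coding region, bin 16, at chr5:20049403-20049444, which is printed because Magi2 is the member that was called for exon usage.

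Magi2 bin 16: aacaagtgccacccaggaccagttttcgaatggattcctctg

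It held 59 to 99 counts in congenic and 78 to 134 counts in wild-type mice, or 29.8 ± 4.76% and 29.8 ± 2.46% of its flanking bins (SD, n = 8 each). With 99 bases added to each length the mean over 16 mice was 50.3%. The equal means stand beside the called bin 34 of the same gene, and the log2 difference of bin 16 was -0.03. In Magi1 the alternative exons of 84 and 36 bases reached 38.7 ± 4.12% and 83.0 ± 5.93% in congenic and 35.5 ± 2.41% and 80.9 ± 5.10% in wild-type mice, and neither passed.

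Variation between mice was larger than the genotype difference for each member, and for several it followed the marker genes of the punch. Pearson's r between a member's log2 CPM and a marker score was computed over the 16 mice for both neuronal marker lists, 20 relations in all, with p-values from 100000 permutations adjusted by Benjamini-Hochberg. The permutations ran over all 16 mice without regard to genotype or sex. Their p-values therefore do not separate differences between groups from relations within them. Of the 20, 6 had an adjusted p under 0.05. The share of all genes that followed these scores was not computed, so the relations are not shown to be particular to the scaffolds. Against the cortical score, r was -0.79 for Dlg1 (rho -0.74, permutation p = 0.00014, adjusted 0.0028), -0.73 for Shank3 (rho -0.76, p = 0.0011, adjusted 0.00733) and 0.69 for Shank1 (rho 0.74, p = 0.00374, adjusted 0.0125). Without the 2 mice farthest from the median score, these were -0.604, -0.675 and 0.858. Within congenic mice r was -0.83 for Dlg1, -0.86 for Shank3 and 0.615 for Shank1, and within wild-type mice -0.68, -0.56 and 0.95. Within males r was -0.78 for Dlg1, -0.575 for Shank3 and 0.402 for Shank1, and within females -0.831, -0.763 and 0.857.

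Against the score of striatal projection neuron markers, r was 0.77 for Dlg4 (rho 0.64, permutation p = 0.00033, adjusted 0.0033), 0.72 for Dlg3 (rho 0.70, p = 0.00213, adjusted 0.00852) and 0.72 for Magi2 (rho 0.70, p = 0.00207, adjusted 0.00852). Without the 2 mice farthest from the median these were 0.605, 0.634 and 0.647. Within congenic mice r was 0.53, 0.73 and 0.84 for Dlg4, Dlg3 and Magi2, and within wild-type mice 0.92, 0.83 and 0.74. Within males r was 0.323 for Dlg4, 0.774 for Dlg3 and 0.611 for Magi2, and within females 0.84, 0.779 and 0.822. Members and markers were read from the same libraries, and whether the dissection of the punch sets these relations was not tested. With the cortical score as a covariate the log2 fold change by genotype was -0.02 for Dlg1, -0.02 for Shank3 and 0.09 for Shank1.

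Across the 16 mice, the gene outside the 10 whose log2 CPM was most like a member's was found for each by Pearson's r, as a description. Closest of all was Dync1li1, a dynein subunit, to Dlg3 with r = 0.977, then Gng7, a G protein subunit of striatal neurons, to Shank3 with r = 0.975. Gabra4, a GABA-A receptor subunit, was closest to Dlg2 (0.94), Arf3 to Dlg4 (0.94), Zfp7 to Shank1 (0.93), Etv3 to Shank2 (0.91) and Kif5b, a kinesin, to Dlg1 (0.91). The Magi genes had Cit for Magi2 (0.90), Pdcd11 for Magi1 (0.88) and Nr6a1 for Magi3 (0.82). Zfp7 averaged 4.13 CPM, the lowest of these genes. Among members, the most alike were Dlg4 and Shank3 (0.78), and the least alike Shank1 and Shank3 (-0.56). These are the highest or lowest of many relations over 16 libraries that share depth and dissection, and no p is given.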

How the data were processed

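Per the labels, libraries were made with a stranded poly(A) kit; the labels give both 50 bp single-end and 100 bp paired-end reads, and the submitters' processing notes name mm9 and mm10, limma 3.22.7, edgeR 3.8.6, HTSeq 0.6.1p1 and FastQC 0.10.1 without their roles. For the aligner, strand setting and annotation, the sources used here give nothing. The deposited values are raw counts of the authors, whole numbers per gene and per exon bin for each of 48 runs; the 3 lanes of a mouse were summed, which left 16 mice.

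Counts were tested with edgeR 4.0.16 in R 4.3.3 (filterByExpr with a minimum of 10 counts in at least 4 mice, the smallest genotype and sex group, and a total of 15, TMM normalization, robust quasi-likelihood fit of genotype and sex over all 16 mice), and exon bins with diffSpliceDGE, whose natural-log differences were converted to log2. Calls needed a Benjamini-Hochberg adjusted p under 0.05 over all genes or all bins. SEs of bins were derived from the p-values. CPM used TMM-scaled totals, and DESeq2 1.42.0 and limma 3.58.1 gave alternatives. The procedures were tested on simulated data, in which changes were placed only in genes and bins with many counts. That test does not bear on bins as low as Magi2 bin 34. Replicates are separate mice.

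Bin coordinates were rebuilt from GENCODE M1 on NCBIM37 (mm9). Of 17389 genes with at least 5 bins, 16977 (97.6%) had the deposited number of bins, all 10 members among them. Bins are numbered in genome order, so the first bins of Magi1 and Magi3, on the minus strand, are their 3′ ends. Sequences were read from NCBIM37 with Python 3.11.15 and identities come from pairwise alignment in Biopython 1.88.

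All 10 members are named. For each, the bins named were those of smallest p by genotype and by sex, of largest share, and of lowest coding density among bins of at least 100 bases, with Magi2 bin 34, and from these the text takes the ones it discusses; for likeness, the non-member of highest r; and of the partner list, the 3 of smallest p in each comparison. Members, lists and rules were chosen with earlier results of these data known, and the overlap with exons of the other strand was looked at after Shank3 bin 14 had been seen. Counting error alone bounds a bin at 0 counts, which allows up to 3.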

Additional observations from a re-analysis of the deposited data

Results flagged for a closer look

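In the 130 groups of 8 mice that were scanned, 11 had 1 mouse farther from the rest than the critical value of Dixon's test at 95% allows. Chance gives about 5% of groups where values are continuous and normal, and this rate does not hold for bins near 0 counts. Most lie in bins of few counts. In Magi2 bin 34, wild-type replicate 1 held 0.0682% of the exon counts of Magi2, against 0 to 0.0290% in the other 7 wild-type mice. Magi3 bin 3 stood at 0.374% in congenic replicate 1, against 0.107 to 0.159% in the other congenic mice. Dlg2 bin 17 stood at 0.0704% in congenic replicate 4 (others 0.0179 to 0.0427%). Dlg2 bin 32 stood at 0.00419% in wild-type replicate 3, from 2 counts, where the others had 0. Dlg4 bin 1 stood at 0.00378% in congenic replicate 1 (others 0 to 0.00165%). Magi1 bin 28 stood at 0.0133% in wild-type replicate 3, from 1 count, where the others had 0.

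In bins with more counts the gaps were smaller in proportion. Dlg4 bin 12 held 0.124% in wild-type replicate 5 (others 0.0735 to 0.0967%). Congenic replicate 8 was highest for the last bin of Dlg4, bin 47, at 7.82% (others 6.40 to 7.04%), and for bin 34 of Shank1, at 22.2% (others 19.98 to 20.7%). Exon B of Dlg3 was at 84.6% of its flanking bins in wild-type replicate 8, the library whose Xist level goes against its label, against 93.9 to 96.7% in the other 7 wild-type mice. The 24-base exon of Shank1 was at 17.9% of its flanking bins in congenic replicate 7, against 9.51 to 13.4% in the other congenic mice.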

How the results depend on the processing

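No member was called for level by genotype, sex or their product under any alternative run (no filter, DESeq2, limma-voom, the cortical score as a covariate, each mouse left out). Member genes called for exon usage by genotype were 1 as reported and 0 with limma, with a bin minimum of 30, with the cortical covariate and in lane 3, 4 or 5 alone, and 0 to 1 with 1 mouse left out. Bin 34 of Magi2 was not tested at the minimum of 30 or in single lanes; elsewhere its log2 difference was 2.09 (limma), 1.70 (covariate) and 1.91 to 2.71 (1 mouse left out). The order of levels kept 4 of 10 ranks with the longest transcript and 6 of 10 with exon bin sums; the cause of these changes was not tested. Of 20 level differences, DESeq2, limma-voom and no filter kept all signs and the cortical covariate turned 7, none of them called. Adding 99 bases to bin lengths, chosen after seeing the data, moved 17 of 18 cassette exon and 13 of 26 start percentages, and single lanes moved 0 of either. Over all genes, calls by sex were 23 (edgeR), 259 (DESeq2), 14 (covariate) and 12 to 76 (1 mouse left out, 15 without wild-type replicate 8), and genes called for exon usage by sex 19, 49 (limma), 7 (covariate) and 7 to 40 (1 mouse left out). No paired analysis was possible because the mice of the genotypes carry different numbers. Bins under about 10 counts per mouse, such as Magi2 bin 34 and the upstream bins of Shank2, are limited by depth.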
